A study of Homo sapiens with 9 samples.

Results

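The *AKR1* family holds enzymes of the aldo-keto reductase superfamily, which use NADPH to reduce aldehydes and ketones to alcohols. In liver cells its members act on sugars, reactive aldehydes, retinoids, steroid hormones, prostaglandins and bile acid precursors. Several of them are known targets of the antioxidant factor NRF2 and are high in many liver cancers. The genes described here are the rows with the symbols *AKR1A1*, *AKR1B1*, *AKR1B10*, *AKR1C1*, *AKR1C2*, *AKR1C3*, *AKR1C4* and *AKR1D1*, picked by symbol, which makes 8 of the 13017 genes of the sh1-*TUG1* table and 8 of the 12953 genes of the sh2-*TUG1* table. *AKR1B15*, which also has a row in each table, is not among them, and the family below means these 8 genes. The family was proposed with earlier results of these data known. Its fold changes and calls are therefore a description and not independent evidence.

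The study addressed how the long noncoding RNA *TUG1* shapes gene expression in hepatocellular carcinoma cells. RNA was sequenced from HepG2, a human liver cancer cell line, in 3 groups with 3 libraries each. The sh-Con line carried a control hairpin, and the sh1-*TUG1* and sh2-*TUG1* lines carried different hairpins against *TUG1*. Per the study's methods, all 3 lines were made with a doxycycline-inducible lentiviral vector. Each group was thus a single transduced line, and a difference between groups cannot be told apart from a difference between these lines. The study calls the 3 libraries of a group technical replicates, so the p-values below measure only the spread between libraries. *TUG1* itself was not analysed here, so the labels were not checked against it. Total counts ran from 33054291 to 39393293 per library. All 11 hepatocyte markers were listed, with group means of at least 75.9 CPM (counts scaled to library size), *ALB* and *AFP* among them. Of 16 stromal and blood cell markers 10 were not listed. The summed level of the 6 listed ones went from 1125 to 1298 CPM between sh-Con and sh1-*TUG1* in the first table, and from 1101 to 830.2 CPM between sh-Con and sh2-*TUG1* in the second. Most of that sum was *LYZ*, and the part of these markers in the results below was not tested. In bulk RNA, fewer cells expressing a gene and less RNA per cell cannot be told apart.

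The 4 *AKR1C* genes form a cluster on chromosome 10 (GRCh38, GENCODE 29). *AKR1C1* lies on the plus strand at chr10:4963253-4983283, and *AKR1C2* follows on the minus strand at chr10:4987400-5018031, with 4116 bases between them. *AKR1C3* lies at chr10:5035354-5107686 and *AKR1C4* at chr10:5195462-5218949, both on the plus strand. *AKR1B1* (chr7:134442350-134459284, minus strand) and *AKR1B10* (chr7:134527592-134541408, plus strand) are neighbours on chromosome 7, with 68307 bases between them. *AKR1D1* lies further along that chromosome at chr7:138002324-138117986, and *AKR1A1* lies apart at chr1:45550543-45570049. The coding sequences of *AKR1C1* and *AKR1C2* were 98.0% identical, with 19 mismatches over 969 bases. *AKR1C3* was 91.4% and *AKR1C4* 88.5% identical to *AKR1C1*, whereas *AKR1B1* and *AKR1B10* were 76.7% identical to each other.

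The near identity of *AKR1C1* and *AKR1C2* extended to their promoters. Over windows of 300 bases around the RefSeq transcript starts (250 before, 50 after), *AKR1C1* and *AKR1C2* were identical at 98.6% of 292 aligned bases and shared an unbroken run of 245 bases. *AKR1C1* and *AKR1C4* were identical at 68.2% of 280 aligned bases. The CCAAT letters, searched on both strands, were found in 34.6% of the 35116 promoters of the RefSeq table. Of the 7 family members with an entry in that table, *AKR1B1*, *AKR1C1*, *AKR1C2* and *AKR1C3* had a match. The core TGACNNNGC of the antioxidant response element, present in 13.3% of all promoters, had no match in these windows. TATAAA, present on either strand in 11.5%, matched in *AKR1C4* at position -29 on the gene's strand. In *AKR1C3* only its inverted form matched, at position -26 from the upstream start. Bases further from the starts were not searched, and *AKR1B10* had no entry, so elements outside these windows were not looked for. The sites of the 5 genes that were higher in sh2-*TUG1* are shown because *AKR1C1*, *AKR1C2* and *AKR1C3* hold the inverted letters with similar flanking bases at positions -86 to -73 from their starts, and *AKR1C4* does not hold them. Capitals mark CCAAT, its inverted form ATTGG, or the 5 bases at its place in *AKR1C4*. Each line is 30 bases of RefSeq sequence (GRCh38.p14), 5′ to 3′ on the gene's strand.
AKR1C1 (chr10:4963326-4963355, plus strand): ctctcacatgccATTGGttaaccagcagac
AKR1C2 (chr10:5003921-5003950, minus strand): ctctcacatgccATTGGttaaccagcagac
AKR1C3, upstream start (chr10:5048696-5048725, plus strand): cttttacatgctATTGGttaaccattaggc
AKR1C3, downstream start (chr10:5094316-5094345, plus strand): ctcctacatgccATTGGttaaccatcagtc
AKR1C4 (chr10:5196736-5196765, plus strand): ctcctacatgccATTGAttagccccaggga
AKR1B1 (chr7:134459181-134459210, minus strand): cccccagcgcaaCCAATcagaaggctcctt
The *AKR1C1* and *AKR1C2* sites were the same at all 30 bases. The *AKR1C3* sites matched the *AKR1C1* site at 24 and 26 bases, and the stretch of *AKR1C4* most like it matched at 20 bases. In GENCODE 29 the *AKR1C1*, *AKR1C2* and downstream *AKR1C3* sites lie in exons of transcripts that begin upstream of the RefSeq starts. The CCAAT of *AKR1B1* lies at position -98 from 1 of its RefSeq starts and at position 41, within the transcript, from the other. A match of letters is a description and not a binding site.

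The 8 genes together took a larger share of the counts in both knockdown lines. They made up 0.242% to 0.270% of all counts in the sh-Con libraries, 0.331% to 0.340% in the sh1-*TUG1* libraries and 0.509% to 0.547% in the sh2-*TUG1* libraries. The groups did not overlap. Most of these counts were *AKR1C1*, which made up 67.3% to 68.3% of the family's counts in sh-Con, 71.7% to 72.6% in sh1-*TUG1* and 72.6% to 73.7% in sh2-*TUG1*. The 4 *AKR1C* genes together made up 88.2% to 88.6% of the family's counts in sh-Con and 91.8% to 92.1% in sh2-*TUG1*.

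**Figure D1:**
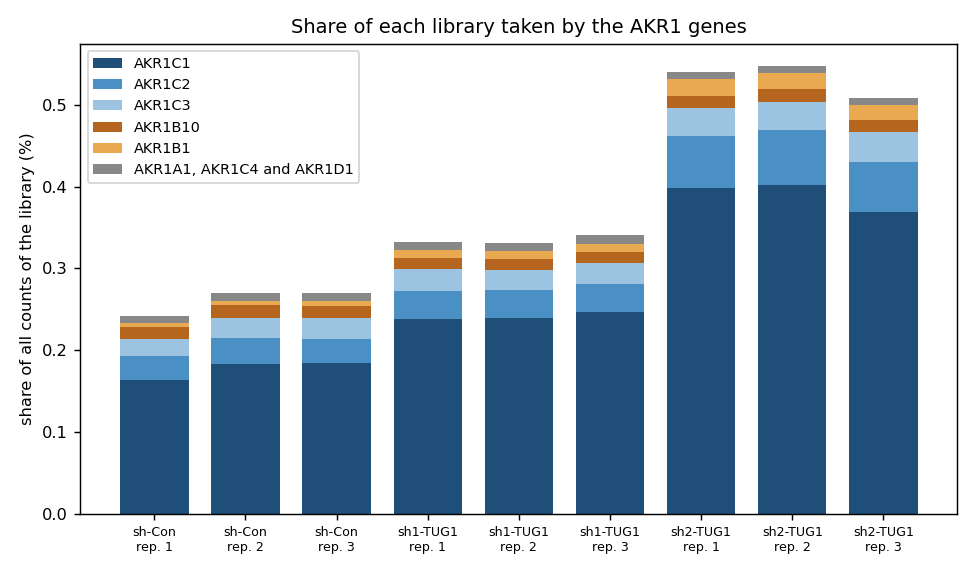
Share of all counts of each of the 9 libraries (y axis, %) taken by the *AKR1* genes, stacked by gene. The bars rise from 0.242% to 0.270% in sh-Con to 0.509% to 0.547% in sh2-*TUG1*, and most of each bar is *AKR1C1*.

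Each knockdown line was compared with sh-Con in edgeR by the quasi-likelihood method, and p-values were adjusted after Benjamini and Hochberg over every gene of the table. A gene is said to have risen or fallen where its adjusted p was under 0.05, and is called a DEG where its fold change also exceeded 1.5. In sh1-*TUG1* 3 members rose (*AKR1B1*, *AKR1C1* and *AKR1C2*), against 12.5% of all genes, and 1 fell (*AKR1B10*), against 12.3% of all genes. Of these only *AKR1B1* was a DEG, and 2.44% of all genes were DEGs in that direction and 2.52% in the other. In sh2-*TUG1* 5 members rose (*AKR1B1*, *AKR1C1*, *AKR1C2*, *AKR1C3* and *AKR1C4*), against 21.6% of all genes, and none fell, against 21.9%. All 5 were DEGs, against 4.35% of all genes that were DEGs in that direction and 8.97% in the other. Of the 5, *AKR1C4* may have been listed only through its level in sh2-*TUG1*, as set out below. Libraries of the groups did not overlap for the 4 members that passed with sh1-*TUG1*, as for 21.3% of all genes upward and 20.2% downward, nor for the 5 that passed with sh2-*TUG1*, as for 27.1% upward and 27.3% downward. The median log2 of the fold change, log2(FC), of the family was 0.13 for sh1-*TUG1* and 0.85 for sh2-*TUG1*, beside 0.0027 and -0.0048 over all genes tested. Both comparisons share the 3 sh-Con libraries, so they are not independent of each other.

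**Figure D2:**
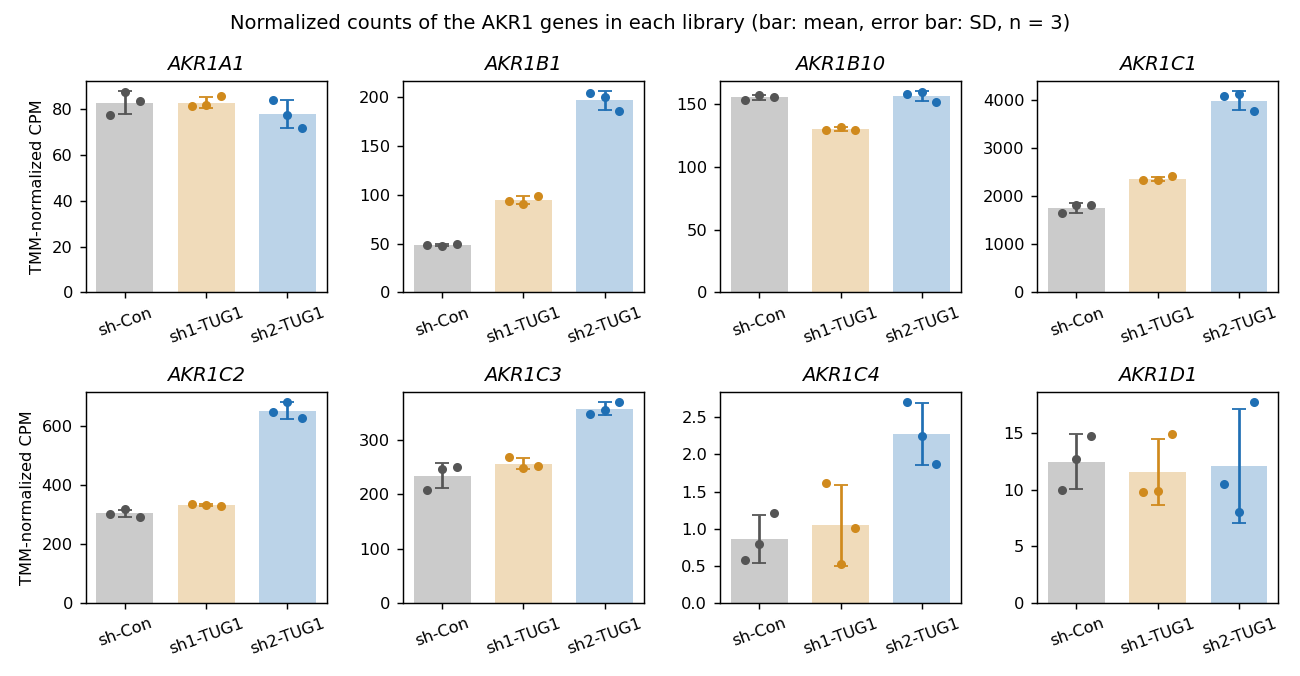
Normalized counts (y axis, CPM, scaled over all 9 libraries) of each *AKR1* gene in the sh-Con, sh1-*TUG1* and sh2-*TUG1* libraries, with points for libraries, bars for means and error bars for SD (n = 3). *AKR1B1*, *AKR1C1* and *AKR1C2* are lowest in sh-Con and highest in sh2-*TUG1*, with a small gap between sh-Con and sh1-*TUG1* for *AKR1C2*. *AKR1C3* and *AKR1C4* are highest in sh2-*TUG1*, and *AKR1B10* is lowest in sh1-*TUG1*.

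*AKR1B1* encodes aldose reductase, which turns glucose into sorbitol in the opening step of the polyol pathway. Its normalized counts were 48.7, 47.6 and 49.9 CPM in the sh-Con libraries. They were 93.7, 90.9 and 99.1 CPM in sh1-*TUG1* and 204.0, 200.2 and 185.8 CPM in sh2-*TUG1*. The 3 groups did not overlap, and the spread within each was small beside the differences between them. Against sh-Con, log2(FC) was 0.96 (SE 0.054, edgeR adjusted p = 3.74e-06) in sh1-*TUG1*, a 1.94-fold rise. For sh2-*TUG1* it was 2.01 (SE 0.055, edgeR adjusted p = 5.68e-08), a 4.03-fold rise that ranked 34 among the 12953 genes ordered by log2(FC). *AKR1B1* was the member with the highest fold change in both lines and the only one called a DEG in both.

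*AKR1B10*, its neighbour, encodes an enzyme that reduces retinal and aldehydes from lipids and is used as a marker of liver cancer. Its pattern differed from that of *AKR1B1*. The sh-Con libraries held 153.2, 157.0 and 155.4 CPM, the sh1-*TUG1* libraries 129.0, 131.6 and 129.4 CPM, and the sh2-*TUG1* libraries 157.6, 159.3 and 151.6 CPM. The sh1-*TUG1* libraries lay below all others, and the sh2-*TUG1* libraries overlapped sh-Con. The level fell in sh1-*TUG1*, by 0.26 on the log2 scale (SE 0.041, edgeR adjusted p = 0.00178). For sh2-*TUG1* log2(FC) was 0.0064 (95% interval -0.095 to 0.11, edgeR adjusted p = 0.923).

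*AKR1C1* encodes a hydroxysteroid dehydrogenase that converts progesterone to a less active metabolite. It was the family's most abundant transcript by CPM, at 1645, 1814 and 1824 CPM in sh-Con. The sh1-*TUG1* libraries held 2333, 2344 and 2416 CPM, and the sh2-*TUG1* libraries 4083, 4130 and 3769 CPM. The groups did not overlap, and log2(FC) was 0.42 (SE 0.047, edgeR adjusted p = 0.000222) for sh1-*TUG1* and 1.18 (SE 0.056, edgeR adjusted p = 8.12e-07) for sh2-*TUG1*. In sh1-*TUG1* the rise was 1.34-fold and stayed under the fold limit for a DEG, while in sh2-*TUG1* it was 2.26-fold.

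*AKR1C2*, whose enzyme inactivates the androgen dihydrotestosterone and binds bile acids, was read at 301.8, 318.5 and 292.7 CPM in sh-Con. It was at 337.6, 332.4 and 331.1 CPM in sh1-*TUG1* and at 649.2, 683.8 and 627.3 CPM in sh2-*TUG1*. The difference between sh-Con and sh1-*TUG1* was small, although the groups did not overlap. Its log2(FC) was 0.13 (SE 0.043, edgeR adjusted p = 0.0496) in sh1-*TUG1*, and this call was lost without sh-Con replicate 3 (edgeR adjusted p = 0.187) or without sh1-*TUG1* replicate 1, 2 or 3 (edgeR adjusted p = 0.149, 0.129 and 0.120). It was also lost with DESeq2's size factors in edgeR (adjusted p = 0.0547). For sh2-*TUG1* log2(FC) was 1.10 (SE 0.052, edgeR adjusted p = 7.66e-07), a 2.14-fold rise.

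How reads were divided between *AKR1C1* and *AKR1C2* is not given in the sources used here, nor is the read length. Of all 100-base windows of the *AKR1C2* transcript, 31.1% occur unchanged in *AKR1C1*, and 17.2% of the *AKR1C1* windows occur in *AKR1C2*. The separate values of both genes are therefore uncertain. With their counts summed, the log2(FC) was 0.38 (SE 0.044, edgeR adjusted p = 0.000254) for sh1-*TUG1* and 1.17 (SE 0.053, edgeR adjusted p = 6.245e-07) for sh2-*TUG1*. *AKR1C1* took 84.5% to 86.2% of the summed counts in sh-Con, 87.4% to 87.9% in sh1-*TUG1* and 85.7% to 86.3% in sh2-*TUG1*. *AKR1C2* also overlaps the antisense gene *AL391427.1*, whose reads cannot be told apart from its own without strand.

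*AKR1C3* encodes an enzyme that makes testosterone from androstenedione and prostaglandin F from its precursors. Its sh-Con libraries held 207.3, 246.0 and 248.9 CPM. The sh1-*TUG1* libraries, at 267.9, 248.7 and 251.4 CPM, overlapped them, whereas the sh2-*TUG1* libraries, at 347.0, 353.8 and 369.5 CPM, all lay above. For *AKR1C3* the log2(FC) was 0.13 (95% interval -0.029 to 0.28, edgeR adjusted p = 0.219) in sh1-*TUG1*. In sh2-*TUG1* it was 0.60 (SE 0.071, edgeR adjusted p = 0.000154), a 1.52-fold rise just past the limit for a DEG. It was 0.52 without sh-Con replicate 1 and 0.58 without sh2-*TUG1* replicate 3, both under that limit. Of the *AKR1C3* transcript, 4.98% of 100-base windows and 12.1% of 50-base windows also occur in other *AKR1C* genes. The part of reads from those genes in the counts of *AKR1C3* was not tested.

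*AKR1C4*, a liver enzyme of steroid and bile acid metabolism, was close to the lower end of what the libraries could count. It had 19, 27 and 45 counts in sh-Con, 55, 19 and 38 in sh1-*TUG1* and 88, 75 and 72 in sh2-*TUG1*. The first 2 groups overlapped, and the sh2-*TUG1* libraries were above both. For *AKR1C4* the log2(FC) was 0.27 (95% interval -0.67 to 1.20, edgeR adjusted p = 0.693) for sh1-*TUG1* and 1.38 (SE 0.30, edgeR adjusted p = 0.00517) for sh2-*TUG1*. Each of these counts is a small fraction of those of *AKR1C1* and *AKR1C3*. Of the *AKR1C4* transcript, 0.456% of 100-base windows and 11.9% of 50-base windows also occur in other genes, with *AKR1C3* alone holding 7.99% of the latter. Since the read length is unknown, the part of reads from these genes in its counts was not tested.

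The remaining members did not pass the test in either line. *AKR1A1*, the broadly expressed aldehyde reductase, was at 77.3, 87.4 and 83.4 CPM in the sh-Con libraries. It was at 81.4, 81.6 and 85.5 CPM with sh1-*TUG1* and at 84.1, 77.6 and 71.7 CPM with sh2-*TUG1*. All groups overlapped, and the 95% interval of the log2(FC) was -0.13 to 0.13 in sh1-*TUG1* and -0.25 to 0.071 in sh2-*TUG1*. *AKR1D1*, the steroid reductase that shapes the ring system of bile acids, was more variable, at 9.94, 12.7 and 14.8 CPM in the sh-Con libraries. It was at 9.81, 9.93 and 14.9 CPM with sh1-*TUG1* and at 10.5, 7.99 and 17.8 CPM with sh2-*TUG1*. The 95% interval was -0.54 to 0.31 in sh1-*TUG1* and -0.63 to 0.54 in sh2-*TUG1*.

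**Figure D3:**
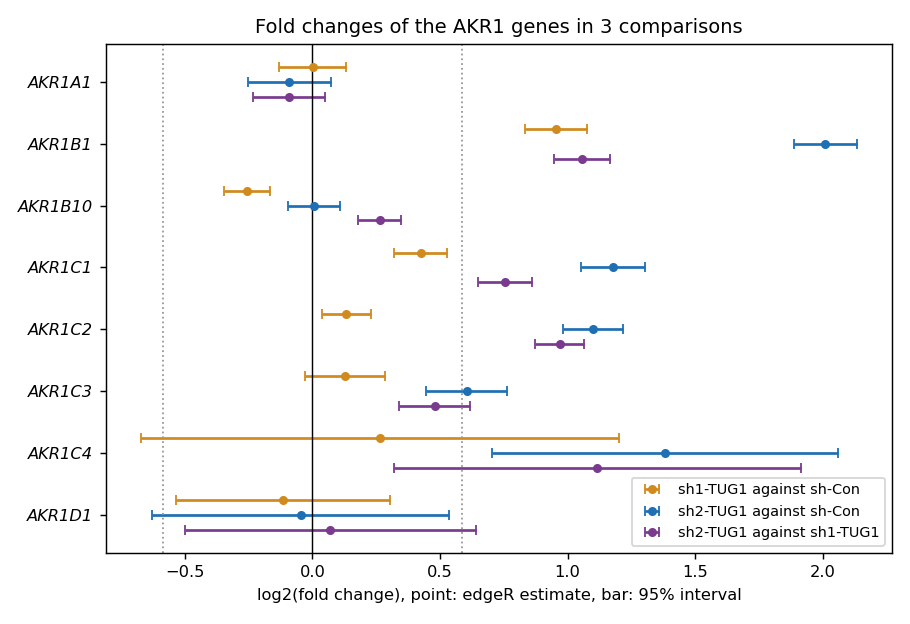
The log2(FC) of each *AKR1* gene (x axis) in sh1-*TUG1* against sh-Con, sh2-*TUG1* against sh-Con and sh2-*TUG1* against sh1-*TUG1*, with points for edgeR estimates, bars for 95% intervals and dotted lines at a fold change of 1.5 in either direction. *AKR1B1* has the highest estimate in sh2-*TUG1*, 2.01, and the intervals of *AKR1A1* and *AKR1D1* cover 0 in all 3 comparisons.

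The knockdown lines also differed from each other. Over the 12854 genes present in both tables, 6 members were higher in sh2-*TUG1* than in sh1-*TUG1* (*AKR1B1*, *AKR1B10*, *AKR1C1*, *AKR1C2*, *AKR1C3* and *AKR1C4*), against 21% of all genes. None was lower, against 21.7%. The differences were 1.06 for *AKR1B1*, 0.97 for *AKR1C2* and 0.76 for *AKR1C1* on the log2 scale, with edgeR adjusted p of 1.06e-07, 8.48e-08 and 5.61e-07. Beside these genes, *AKR1C4* passed the limits for a DEG, and 2.56% of all genes did so in that direction and 8.04% in the other. For all 6 members the sh2-*TUG1* libraries lay above the sh1-*TUG1* libraries without overlap, as for 27.8% of all genes, and the opposite held for none of the members and 27.6% of all genes. *AKR1C4* lost its call (log2 difference 1.12, edgeR adjusted p = 0.0274) without sh1-*TUG1* replicate 2 (0.0888) or 3 (0.0759), or without sh2-*TUG1* replicate 1 (0.0855) or 2 (0.0569), where the values in brackets are edgeR adjusted p. *AKR1C2* differed more between the knockdown lines (0.97) than between sh1-*TUG1* and sh-Con (0.13). For *AKR1B1* these differences were 1.06 and 0.96. The knockdown lines are separate lines and not steps of a series.

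Levels of different genes were compared as CPM per kilobase of the main GENCODE transcript, mean ± SD of 3 libraries. In sh-Con the order was *AKR1C1* (262.6 ± 15.0), *AKR1C3* (129.6 ± 12.8), *AKR1B10* (97.6 ± 1.20), *AKR1C2* (81.0 ± 3.48), *AKR1A1* (45.5 ± 2.81), *AKR1B1* (34.6 ± 0.827), *AKR1D1* (5.32 ± 1.03) and *AKR1C4* (0.609 ± 0.225). No neighbours in this order overlapped between libraries. With the length of all exons, *AKR1A1* (34.7) and *AKR1B1* (34.6) stood at nearly the same level. In sh2-*TUG1* *AKR1B1* stood in position 4 instead of 6, at 139.6 ± 6.81, above *AKR1B10* at 98.2 ± 2.56 and below *AKR1C2* at 174.0 ± 7.58. In sh1-*TUG1* *AKR1C2* (88.8 ± 0.925) stood above *AKR1B10* (81.8 ± 0.869), an order that turned when the length of all exons was used. The transcript length used for *AKR1C1*, 6705 bases, is well above that of the other members, and its level per kilobase depends on it.

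Patterns across the 9 libraries were compared by Pearson's r of log2(CPM), as a description, since the 9 points fall into 3 lines. *AKR1B1* and *AKR1C1* had r of 0.988, *AKR1C1* and *AKR1C2* 0.963, and *AKR1C1* and *AKR1C3* 0.956. *AKR1B10* had r of 0.198 with *AKR1C1*, and *AKR1A1* and *AKR1D1* were at or below 0.0369 with every other member. Outside the family, among 9047 genes with a mean of at least 10 CPM, the genes most like *AKR1B1* included *ALB* (0.993) and *ANKRD10* (0.993). *AKR1C1* was closest to *SLC3A2* (0.997), *ARHGAP35* (0.997) and *HIST1H2AC* (0.996), and *AKR1C2* to *ZNF664* (0.998), *NR3C1* (0.996) and *CNOT10* (0.996). *AKR1C3* was closest to *RPS6KB1* (0.993), *AKR1C4* to *RC3H1* (0.959), *AKR1B10* to *PRNP* (0.992), *AKR1A1* to *FAM160A2* (0.935) and *AKR1D1* to *THPO* (0.925).

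Gene lists around the family were counted in the same fits, with no test of the lists themselves. The counts of all lists here and below stand beside the shares over all genes. In sh1-*TUG1* 12.5% of all genes rose and 12.3% fell, and in sh2-*TUG1* 21.6% rose and 21.9% fell. Several list counts are near these shares. In the list for polyol and methylglyoxal metabolism, which lies around *AKR1B1*, 3 of 6 genes rose in sh1-*TUG1* and none fell, and in sh2-*TUG1* none rose and 4 fell. *SORD*, the dehydrogenase that takes the sorbitol made by aldose reductase on to fructose, had a log2(FC) of 0.26 for sh1-*TUG1* and -0.29 for sh2-*TUG1* (edgeR adjusted p = 0.0175 and 0.00754). *KHK*, which phosphorylates fructose, had 0.40 and -0.23 (edgeR adjusted p = 0.000737 and 0.0114). Of the other aldo-keto reductases 3 of 9 were tested. None of them passed in sh1-*TUG1*, and in sh2-*TUG1* none rose and 2 fell. Among the latter, *AKR7A2*, a liver aldehyde reductase, fell by 0.66 on the log2 scale. *AKR1B15* had a log2(FC) of -0.10 for sh1-*TUG1* and 0.33 for sh2-*TUG1* (edgeR adjusted p = 0.792 and 0.267).

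Other enzymes that clear aldehydes and carbonyls were tested for 17 of 22 genes. In sh1-*TUG1* 6 rose and none fell, and in sh2-*TUG1* 4 rose and 7 fell, with a median log2(FC) of 0.11 and -0.13. The aldehyde dehydrogenase *ALDH1B1* rose in sh1-*TUG1* (0.35) and fell in sh2-*TUG1* (-0.21), while the alcohol dehydrogenase *ADH6* (0.72 and 0.24) and *ALDH3A2* (0.18 and 0.17) rose in both. Among steroid enzymes 6 of 20 rose and 1 fell in sh1-*TUG1*, and 7 of 19 rose and 5 fell in sh2-*TUG1*. *CYP3A7* (1.16 and 1.98), *CYP3A5* (1.24 and 1.41) and *UGT2B4* (0.70 and 1.37), which oxidise steroids or couple them to glucuronic acid, rose in both lines, and the aromatase gene *CYP19A1* fell in both (-0.22 and -1.67).

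Bile acid synthesis, in which *AKR1C4* and *AKR1D1* act, gave 8 of 15 genes that rose and none that fell in sh1-*TUG1*. In sh2-*TUG1* 2 of 14 rose and 7 fell. Over all genes 12.5% rose and 12.3% fell in sh1-*TUG1*, and 21.6% rose and 21.9% fell in sh2-*TUG1*. *BAAT*, which couples bile acids to amino acids, rose in both lines (log2(FC) 0.58 and 1.31), as did the bile acid receptor gene *NR1H4* (0.62 and 0.71). *SLC27A2* (0.53 and -0.49) and *ACOX2* (0.32 and -0.60), which prepare and shorten the side chain, rose in sh1-*TUG1* and fell in sh2-*TUG1*. *CYP7A1*, the rate-limiting enzyme, stood at 1.40 ± 0.203 CPM without and 1.49 ± 0.171 CPM with the first hairpin (SD, n = 3) and did not pass the test in sh1-*TUG1*. In the prostaglandin list none of 5 genes passed in sh1-*TUG1*, and 2 of 6 fell in sh2-*TUG1*.

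NRF2, encoded by *NFE2L2*, is the known activator of several *AKR1* genes. Of 27 genes in the list of NRF2 and its antioxidant targets, 3 rose and 10 fell in sh1-*TUG1*, and 11 rose and 5 fell in sh2-*TUG1*. The median log2(FC) of this list was -0.077 and -0.011, beside 0.0027 and -0.0048 over all genes. The part of NRF2 in the changes of the *AKR1* genes was not tested. The peroxidase gene *GPX2* rose in both lines (0.76 and 1.01), as did *EPHX1* (0.37 and 0.21), whereas the exporters *ABCC3* (-0.51 and -1.10) and *ABCC2* (-0.40 and -0.22) fell in both. *NQO1*, a target often used as a readout of NRF2, fell in both lines, by 0.14 and 0.29. *NFE2L2* itself had a log2(FC) of -0.061 in sh1-*TUG1* (edgeR adjusted p = 0.438) and rose by 0.27 in sh2-*TUG1* (edgeR adjusted p = 0.0032), where *KEAP1*, the inhibitor of NRF2, rose by 0.33.

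Among 14 transcription factors and nuclear receptors that regulate liver *AKR1* genes, 2 rose and none fell in sh1-*TUG1*, and 4 rose and 3 fell in sh2-*TUG1*. *NR1H4* was the gene of this list that rose in both lines. Where none is given above for the family or a list by edgeR, there was also none at an unadjusted p under 0.05 or with DESeq2, with these exceptions. At an unadjusted p 1 aldehyde gene and 1 of these regulators fell in sh1-*TUG1* and 1 polyol gene rose in sh2-*TUG1*, and DESeq2 called 1 regulator lower in sh1-*TUG1*. *HNF4A*, a central factor of liver cells, had a log2(FC) of -0.014 in sh1-*TUG1* and fell by 0.20 in sh2-*TUG1*. *NR1I2*, the xenobiotic receptor PXR, had -0.12 in sh1-*TUG1* and fell by 1.14 in sh2-*TUG1*. In the hepatocyte marker list 6 of 11 genes rose and 3 fell in sh1-*TUG1*, and 3 rose and 5 fell in sh2-*TUG1*.

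**Figure D4:**
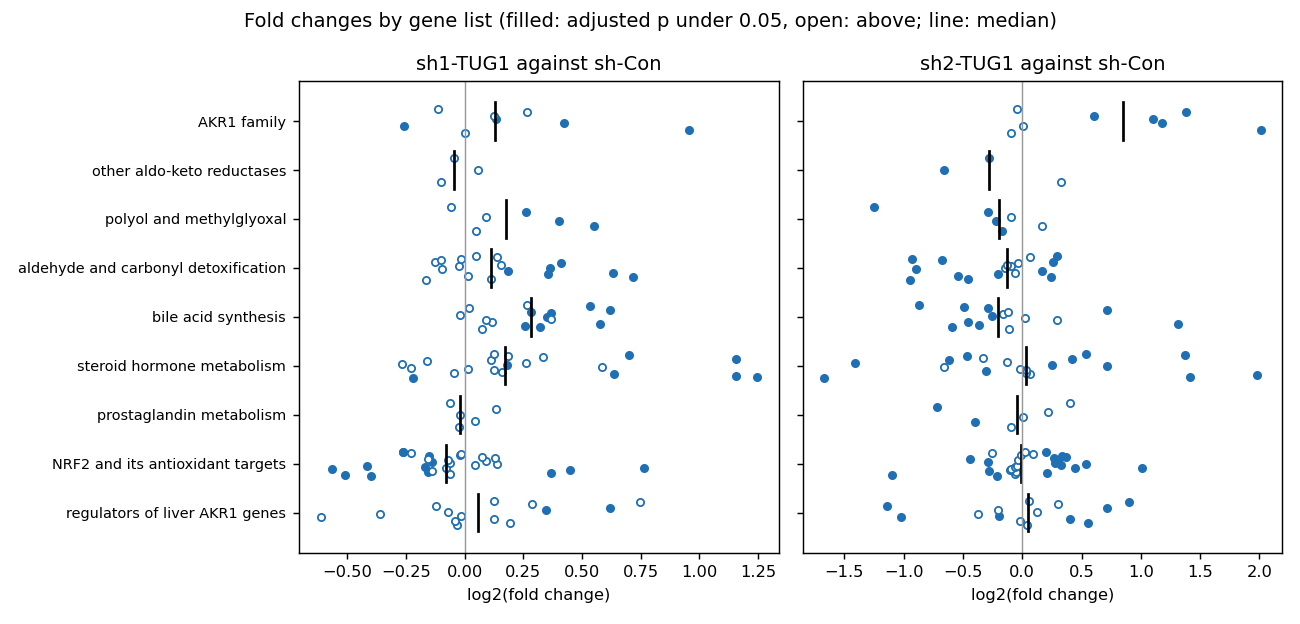
The log2(FC) of each tested gene (x axis), by gene list, in sh1-*TUG1* and sh2-*TUG1* against sh-Con, with filled points for an adjusted p under 0.05, open points for those above and black lines for medians. The median of the *AKR1* family is 0.13 for sh1-*TUG1* and 0.85 for sh2-*TUG1*, and the medians of the polyol, aldehyde and bile acid lists lie above 0 in sh1-*TUG1* and below 0 in sh2-*TUG1*.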

How the data were processed

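Total RNA of 9 HepG2 libraries was sequenced. The authors deposited raw counts per gene with FPKM values in 2 tables, each with the sh-Con libraries and those of 1 knockdown line. The submitters' processing notes name HISAT2, StringTie and GRCh38, without a role. The deposited FPKM values were not used. The columns of the authors' own comparison, with an FDR (adjusted p-value) and a log2 fold change, hold their findings and were not used. The counts were fitted with edgeR 4.0.16 (R 4.3.3, limma 3.58.1, TMM, filterByExpr, quasi-likelihood test) over each whole table, and over all 9 libraries for sh2-*TUG1* against sh1-*TUG1*. filterByExpr removed 0 genes. Printed CPM were scaled over all 9 libraries, except marker levels, list sums and *CYP7A1*, scaled within a table. Log2(CPM) used a prior count of 2. On simulated counts for sh2-*TUG1* against sh-Con (12953 genes, 200 changed), edgeR recovered 99% of 2-fold and 100% of 4-fold changes, with 1 false call. The simulation used the same spread setting for all genes and changed only genes above a count limit. Its rates need not hold for genes that vary more between libraries, such as *AKR1D1*. Sequence comparisons used GENCODE 29 and Biopython 1.88, and promoters came from RefSeq. DESeq2 1.42.0 was an alternative. The members and gene lists were chosen with earlier results of these data known. The text names the 8 members, up to 4 genes per list with the largest changes among those passing in both lines, listed genes whose role bears on a member, and up to 3 genes most like each member. Of the last, a gene is not reported here.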

Additional observations from a re-analysis of the deposited data

Results flagged for a closer look

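Of the 8 members, 6 differed between the knockdown lines when sh2-*TUG1* was tested against sh1-*TUG1* with edgeR, so that the change from sh-Con was not the same with both hairpins. The log2 difference was 1.06 for *AKR1B1*, 0.97 for *AKR1C2*, 0.76 for *AKR1C1*, 0.48 for *AKR1C3*, 0.26 for *AKR1B10* and 1.12 for *AKR1C4*. In each case all 3 sh2-*TUG1* libraries lay above all 3 sh1-*TUG1* libraries. Over all genes, 27.8% did so. With the same edgeR test, an adjusted p under 0.05 was reached upward by 21% of all genes and downward by 21.7%. A difference between these lines was thus common among all genes. Each hairpin was carried by its own line, so hairpin and line cannot be told apart.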

How the results depend on the processing

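The alternatives to TMM were DESeq2's size factors (RLE) or library size alone. Those to the filter were no filter or at least 1 CPM in 3 libraries, which kept every gene and so repeated the same fit. Further alternatives were DESeq2, other sets of libraries in the fit and a replicate block. The last were a test of the fold change against 1.5 (glmTreat), summed *AKR1C* counts, and leaving out each library. Tested against 1.5, in sh1-*TUG1* 1 member and 114 genes in all passed (646 in the report's fit), in sh2-*TUG1* 3 members (as DEGs and by adjusted p) and 600 genes (1726), and between the knockdown lines 3 members and 330 genes (1362). With the 4 *AKR1C* genes summed into 1 row, 2 rows passed in sh2-*TUG1* (as DEGs and by adjusted p), and between the lines 2 as DEGs and 3 by adjusted p, since fewer rows were left. *AKR1A1* in sh1-*TUG1* changed sign at -0.0017 with RLE and with DESeq2, and *AKR1B10* in sh2-*TUG1* at -0.029 with library size alone. *AKR1C3* in sh2-*TUG1* had a log2(FC) of 0.57 with library size alone, under the limit for a DEG.

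Leaving out 1 library gave 1 member DEG in sh1-*TUG1*, 4 to 5 in sh2-*TUG1* and 3 to 4 between the lines. By adjusted p it gave 3 to 4, 5 and 5 to 6 members, and over all genes 552 to 687, 1601 to 1700 and 1227 to 1375 DEGs. The log2(FC) crossed 0 for *AKR1A1* in sh1-*TUG1* (-0.051 to 0.037), *AKR1C4* in sh1-*TUG1* (-0.17 to 0.59), *AKR1B10* in sh2-*TUG1* (-0.0061 to 0.028) and *AKR1D1* in sh1-*TUG1* (-0.34 to 0.020), in sh2-*TUG1* (-0.44 to 0.18) and between the lines (-0.32 to 0.30).

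Libraries with the same replicate number did not deviate together (r of -0.298 to 0.0113 over genes), so the numbers were not taken as pairs. With a replicate block *AKR1C2* in sh1-*TUG1* had an adjusted p of 0.0703, and no other member's call changed. The block gave 597, 1646 and 1300 DEGs over all genes. The depth limits *AKR1C4*, with as few as 19 counts in a library.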
